A study of Mus musculus with 20 samples.

Results

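Lymphocytes leave their mark on bulk tissue RNA through genes that few other cells transcribe. The genes described here are 43 T, B and natural killer (NK) cell genes, of which 40 were measured in mouse pancreatic islets and islet grafts, out of 19938 genes and 35511 probe sets on the array. They were listed by cell type, and each was read through 1 probe set that carries only its symbol. The T cell group held 26 listed and 23 measured genes, the cytotoxic or NK group 11 of 11 and the B cell group 6 of 6. Lck, Il2rg and Tcf7 had no probe set under their symbol in the probe annotation and are not analysed here. Every measured gene had just 1 such probe set, so that no choice between probe sets was needed.

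The study asked whether male islets take part in the mRNA changes that pregnancy brings to female islets. RNA from 20 samples was hybridised to Affymetrix MoGene 1.0 ST arrays. All mice were C57bl6/J. Islets in their own pancreas came from female mice that were non-pregnant (NP, n = 4) or 12.5 days pregnant (P12.5, n = 4) and are labelled as a reanalysis of earlier arrays. Islet grafts came from female donors (NP, n = 3; P12.5, n = 3) or male donors (NP, n = 3; P12.5, n = 3), and P12.5 refers to the host. According to the methods all 4 graft groups shared the same kind of host, a female of 8 to 12 weeks made diabetic with streptozotocin, and islets of donors about 12 weeks old were placed under its kidney capsule. A graft therefore holds donor islet cells together with host cells that grew into it or were cut out with it, and the arrays do not separate them. Titles number the samples of each group as biological replicates.

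T cells recognise antigen through the T cell receptor, whose signal is carried by the CD3 chains and tuned by co-receptors and co-stimulatory or inhibitory partners. Cytotoxic T cells and NK cells kill target cells with perforin and granzymes, and NK cells read activating and inhibitory lectin-like receptors. B cells carry the B cell receptor, with CD79A and CD79B as its signalling chains, and CD20, encoded by Ms4a1, on their surface.

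Promoter sequence is shown for 4 genes whose mRNA fell at P12.5 in a graft comparison below and that have a single start in the table used, because these windows sit at the genes that carry the result. The 300-base windows reach from 250 bases before to 50 bases after the gene start and are RefSeq sequence of build GRCm38.p6, printed 5′ to 3′. Capitals mark matches, on either strand, to 5 motifs. The letters searched were AGGAAG for ETS factors and TGTGGT for RUNX factors. For GATA factors they were AGATAA. For T-box factors they were AGGTGTGA. The octamer of B cell promoters was searched as ATGCAAAT. No capitals overlapped in these 4 windows. The Cd3g window, for a chain of the T cell receptor complex, lies at chr9:44980382-44980681 (- strand), that of Nkg7, a cytotoxic granule membrane protein, at chr7:43436888-43437187 (+ strand), that of Klrk1, the activating receptor NKG2D, at chr6:129623815-129624114 (- strand), and that of Cd79a at chr7:24897247-24897546 (+ strand).
Cd3g: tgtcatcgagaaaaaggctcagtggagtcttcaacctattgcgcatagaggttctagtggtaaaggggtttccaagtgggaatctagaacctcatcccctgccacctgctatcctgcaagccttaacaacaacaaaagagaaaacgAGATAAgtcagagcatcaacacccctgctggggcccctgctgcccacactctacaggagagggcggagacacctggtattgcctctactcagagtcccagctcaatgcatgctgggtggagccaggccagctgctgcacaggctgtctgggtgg
Nkg7: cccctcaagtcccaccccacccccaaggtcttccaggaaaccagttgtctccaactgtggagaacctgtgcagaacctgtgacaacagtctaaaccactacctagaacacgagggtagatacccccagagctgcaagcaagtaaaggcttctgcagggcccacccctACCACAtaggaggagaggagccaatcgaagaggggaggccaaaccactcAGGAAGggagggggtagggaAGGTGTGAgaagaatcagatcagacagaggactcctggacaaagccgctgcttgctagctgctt
Klrk1: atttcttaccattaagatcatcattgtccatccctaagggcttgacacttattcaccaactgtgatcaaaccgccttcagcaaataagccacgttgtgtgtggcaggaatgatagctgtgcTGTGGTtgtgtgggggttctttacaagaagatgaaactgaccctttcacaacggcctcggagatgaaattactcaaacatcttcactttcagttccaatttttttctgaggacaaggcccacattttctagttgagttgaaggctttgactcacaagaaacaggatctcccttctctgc
Cd79a: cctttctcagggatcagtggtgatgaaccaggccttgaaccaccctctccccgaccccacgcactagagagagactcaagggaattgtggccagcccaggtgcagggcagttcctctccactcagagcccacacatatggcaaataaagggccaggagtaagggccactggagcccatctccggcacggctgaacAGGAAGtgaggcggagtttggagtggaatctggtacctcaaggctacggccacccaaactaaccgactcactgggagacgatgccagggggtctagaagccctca

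Nkg7 held an ETS, a RUNX and a T-box match, the last of which began 14 bases before the gene start. Cd3g held a GATA match, Klrk1 a RUNX match and Cd79a an ETS match. Of the 43 listed genes 31 had a window, and the 12 without one were Blk, Cd2, Cd28, Cd4, Cd6, Cd79b, Cd8b1, Icos, Il2rb, Klrd1, Ms4a1 and Thy1. Some genes have several starts, so 41 windows were searched. ETS letters were in 18 of the 41 (43.9%), against 35.4% of all 32851 windows, and RUNX letters in 12 (29.3%) against 16.8%. GATA letters were in 3 windows (7.32%, against 11.2%) and T-box letters in 1 (2.44%, against 1.28%), while no window held the octamer, which 1.74% of all windows did. These are letter matches and not measured binding.

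Levels are log2 values from robust multichip analysis, deposited to 1 decimal. A gene was called changed at a limma adjusted p under 0.05 over all probe sets and a fold of at least 1.5. Array medians lay between 5.9 and 6.0 and lower quartiles between 4.7 and 4.9. Arrays of a group correlated at r of 0.971 to 0.989 over probe sets. Mean levels of 11 islet endocrine genes lay between 11.19 and 11.90 on every array. Means of 13 kidney genes were 6.04 to 8.77 on the graft arrays against 5.45 to 5.63 on the islet arrays. Means of 9 acinar genes were 5.14 to 5.40 in grafts against 8.10 to 10.19 in islets.

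In islets that stayed in the pancreas, no lymphocyte gene was called with pregnancy. Of the 40 genes, 10 lay at or below the array's lower quartile on all 4 NP arrays and 8 on all 4 P12.5 arrays, where 21.2% of all probe sets did in either group. Among them was Ms4a1, which read 4.3, 4.3, 4.1 and 4.4 in NP and 4.3, 4.1, 4.1 and 4.4 in P12.5 islets. By limma 0 of 40 genes were called, where 0.724% of all probe sets were, and 2 had an unadjusted p under 0.05, as 11.8% of probe sets did. These were Cd79a (-0.38 ± 0.15, SE) and Gzmk (-0.20 ± 0.09), a granzyme, with adjusted p of 0.361 and 0.401. The median change was -0.03 on the log2 scale and the changes ran from -0.38 to 0.25.

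Of the 40 genes, 12 were higher in female grafts than in islets at NP, most of them T cell genes, and genes of other leukocytes and of stromal cells were higher too. For 12 of 40 genes all 12 graft arrays lay above all 8 islet arrays, where 3.26% of all probe sets did. They were the T cell genes Cd2, Cd3e, Cd3g, Cd4, Cd5, Cd8a, Cd8b1, Il7r, Ms4a4b and Stat4 and the cytotoxic or NK genes Il2rb and Nkg7. In female NP grafts against NP islets 12 of 40 genes rose and none fell by limma, where 5.99% of all probe sets rose. Of these, 10 were T cell genes and 2 cytotoxic or NK genes, while 0 of 6 B cell genes were called. Of the 6 B cell genes 3 had an unadjusted p under 0.05, where 40.8% of probe sets did. The B cell estimates were negative for 4 genes and positive for 2, and ran from -0.58 to 0.28. The difference between the classes was not tested. Median changes were 0.45 for T cell genes, 0.12 for cytotoxic or NK genes and -0.09 for B cell genes, with -0.08 over all probe sets.

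The absence of B cell genes from these calls holds for the 6 listed genes only. Further genes listed for B cells were called, and whether B cells were their source was not tested. In lists that do not overlap with the 40, the same NP comparison called 5 of 18 B cell, 3 of 17 T cell and 1 of 13 cytotoxic or NK genes. Medians were 0.22, 0.08 and -0.02, and 5.99% of all probe sets rose. The B cell genes that rose were Cd72 (1.34), Ebf1 (1.02), Blnk (0.91), Btla (0.74) and H2-Ob (0.68), the T cell genes Ly9 (1.12), Cd96 (0.83) and Themis (0.71), and the cytotoxic or NK gene was the chemokine Ccl5 (1.71), with adjusted p of at most 0.0459 (limma). At P12.5 the calls were Blnk, Cd37 and Cd72 among B cell genes, Ly9 among T cell genes and Ccl5, where 2.83% of all probe sets rose. Markers of other cells had larger medians at NP: 13 of 13 macrophage and dendritic cell genes rose (median 1.62), as did 8 of 10 pan-leukocyte genes (1.87), 8 of 8 stromal genes (2.7) and 10 of 13 kidney genes, while 8 of 9 acinar genes fell (-4.62). Their part in the lymphocyte gene differences was not tested.

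The highest rise was that of Cd3g, 2.62 ± 0.32 (SE) on the log2 scale at an adjusted p of 5.1e-05 (limma), from 4.5, 4.7, 4.3 and 4.7 in NP islets to 7.2, 6.7 and 7.6 in female NP grafts. Il7r, the interleukin-7 receptor chain that keeps resting T cells alive, rose by 1.95 ± 0.27, from 4.4, 4.8, 4.5 and 4.9 to 6.4, 6.7 and 6.7. For both genes the groups lay far apart, but both were above the lower quartile on only 1 of the 8 islet arrays, so the exact size of these rises is uncertain. The adhesion receptor Cd2 rose by 1.25, Stat4, which transmits interleukin-12 signals, by 1.21 and the T cell membrane protein Ms4a4b by 1.18. Gata3, a factor of helper T cells among other cells, rose by 0.62. Kidney genes rose in this comparison too, and which cells carried the Gata3 rise was not tested. Stat4 and Ms4a4b were above the lower quartile on 0 of the 8 islet arrays, so the exact size of their rises is uncertain too. The co-receptors followed, with Cd4 at 1.12, Cd8b1 at 1.07 and Cd8a at 0.78, and Cd3e, a second CD3 chain, rose by 0.71. In the cytotoxic or NK group the rises were those of Nkg7 (1.25) and Il2rb (1.08), a receptor chain for interleukin-2 and interleukin-15. Adjusted p for these 12 genes was at most 0.0348 (limma).

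At P12.5, 6 of 40 genes were higher in female grafts than in islets, where 2.83% of probe sets were. They were Cd3g (1.8), Il7r (1.2), Cd2 (1.06), Nkg7 (0.92), Cd4 (0.84) and Ms4a4b (0.82). Whether the female graft change with pregnancy differed from the islet change was tested directly, and 0 of 40 genes were called by limma, where 0.0507% of probe sets were and 2 genes had an unadjusted p under 0.05, as 14.1% of probe sets did. Without female P12.5 array 3, the P12.5 count dropped to 2, and without male NP array 3, which enters only through the shared spread, it was 10. Because the islet arrays are the earlier set and only the hosts of grafts had streptozotocin, array set, streptozotocin and transplantation cannot be told apart here.

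**Figure D1:**
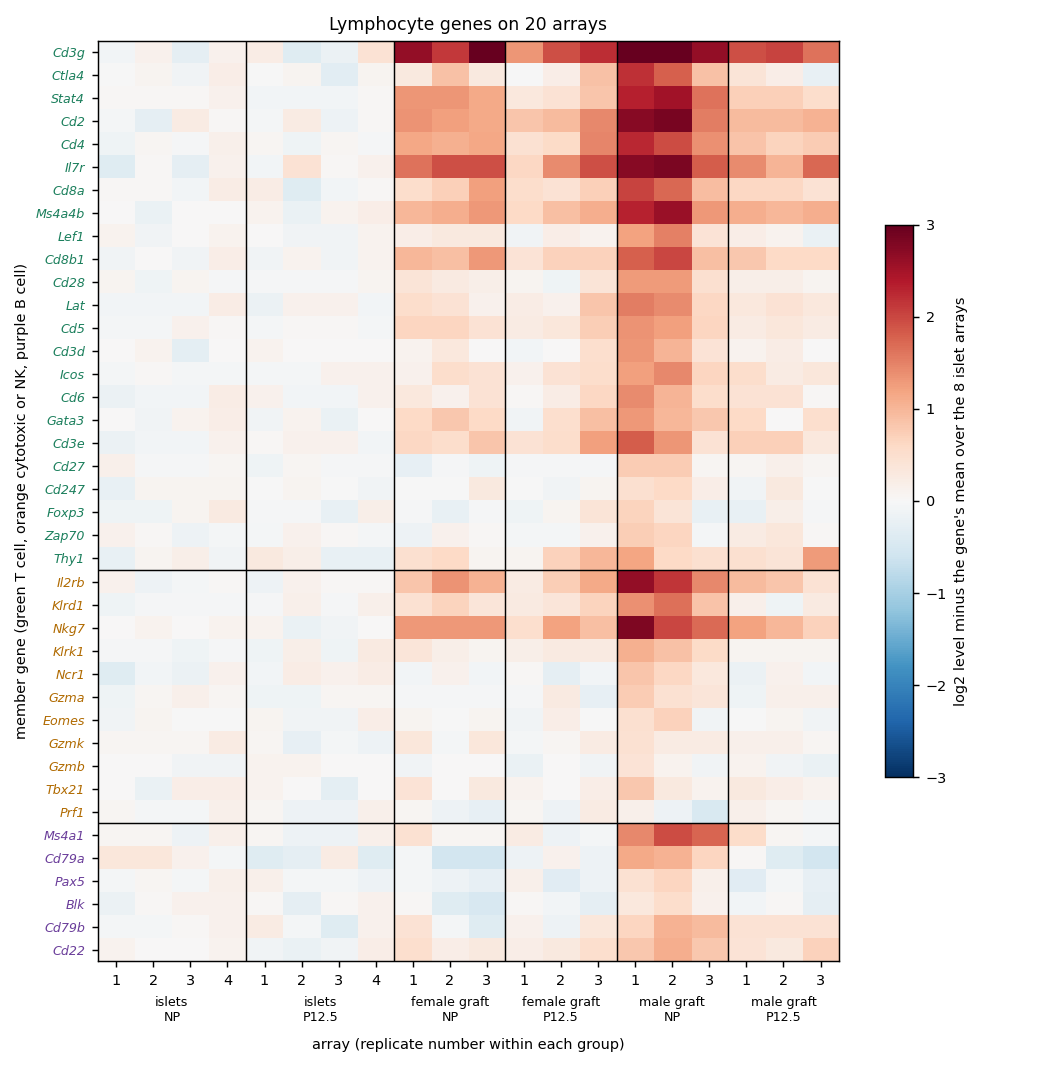
Log2 level of each of the 40 lymphocyte genes (lines) on each of the 20 arrays (columns, grouped by tissue, donor sex and state), minus that gene's mean over the 8 islet arrays. Colour runs from -3 (blue) to 3 (red), and Cd3g lies beyond it on 3 arrays. Male NP arrays 1 and 2 hold the deepest red for most T cell genes, and B cell genes are red mainly on the male NP arrays.

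In male islet grafts 6 lymphocyte genes fell when the host was 12.5 days pregnant, and nearly all others had negative estimates. By limma 6 of 40 genes fell and none rose, where 0.453% of all probe sets fell. They were Ms4a1 and Cd79a in the B cell group, Stat4 and Cd2 in the T cell group, and Klrd1 and Klrk1 in the cytotoxic or NK group. The estimate was negative for 39 of 40 genes, the exception being Prf1. For 30 of 40 genes all 3 P12.5 grafts lay below all 3 NP grafts, where 9.38% of all probe sets did: 17 of 23 T cell, 7 of 11 cytotoxic or NK and 6 of 6 B cell genes. Median changes were -0.83 in T cell, -0.47 in cytotoxic or NK and -0.53 in B cell genes, with 0 over all probe sets. In bulk samples, fewer cells of a type and less RNA per cell cannot be told apart.

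The count of 6 depended on the setting and on single arrays. It was 1 without male NP array 2, 2 without male P12.5 array 2, 3 without male P12.5 array 3, 20 without male NP array 3, 11 after renewed quantile normalization, 16 after array medians were subtracted and 24 with the islet arrays in the same limma model. The share of all probe sets called in these settings is not given, so a higher or lower count may not be particular to lymphocyte genes. The median change of the 40 genes was -0.75 with all male arrays and between -0.98 and -0.63 when 1 of them was left out.

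The dim end of the arrays bears on 3 of the 6 calls. Ms4a1 and Klrk1 were above the lower quartile on 3 of the 12 graft arrays, which were the 3 male NP arrays, and Klrd1 on 5 including those 3. They passed a filter on dim probe sets through the group in which they were high, and the exact size of their changes is uncertain.

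Among B cell genes, Ms4a1 separated the male NP grafts from every other group. It read 5.7, 6.2 and 6.0 in male NP grafts, 4.8, 4.3 and 4.2 in male P12.5 grafts, 4.7, 4.3 and 4.3 in female NP grafts and 4.5, 4.1 and 4.2 in female P12.5 grafts, and between 4.1 and 4.4 on the 8 islet arrays. The 3 male NP arrays stood above every other array, and P12.5 male grafts overlapped female grafts and islets. The change in male grafts was -1.53 ± 0.19 (SE), with an adjusted p of 0.00827 (limma), and it stayed past the threshold whichever of the 12 graft arrays was left out, at -1.72 to -1.42. Cd79a read 6.4, 6.3 and 5.9 in male NP grafts, 5.3, 4.9 and 4.7 in male P12.5 grafts, 5.2, 4.7 and 4.7 in female NP grafts and 5.1, 5.4 and 5.1 in female P12.5 grafts. Again male NP grafts were highest with no overlap, but here islets, between 4.9 and 5.6 on the 8 islet arrays, reached above the other grafts. Cd79a fell by 1.23 in male grafts (adjusted p = 0.0202, limma), and lost the call when 3 of the 12 graft arrays were left out singly, which were male NP array 2 and male P12.5 arrays 2 and 3.

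The other B cell genes had smaller estimates and none was called in male grafts. Pax5, the factor that holds B cell identity, read 5.9, 6.1 and 5.6 in male NP grafts, 5.1, 5.4 and 5.2 in male P12.5 grafts, 5.4, 5.3 and 5.2 in female NP grafts and 5.6, 5.1 and 5.3 in female P12.5 grafts. Its change in male grafts was -0.63 ± 0.16, with an adjusted p of 0.0824 (limma). Cd79b, the partner chain of Cd79a, read 6.5, 6.9 and 6.8 in male NP grafts, 6.3, 6.3 and 6.3 in male P12.5 grafts, 6.3, 5.8 and 5.5 in female NP grafts and 6.0, 5.7 and 6.2 in female P12.5 grafts, and the male groups did not overlap although the change was only -0.43 ± 0.20. The inhibitory lectin Cd22 and the kinase Blk both had male estimates of -0.43.

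**Figure D2:**
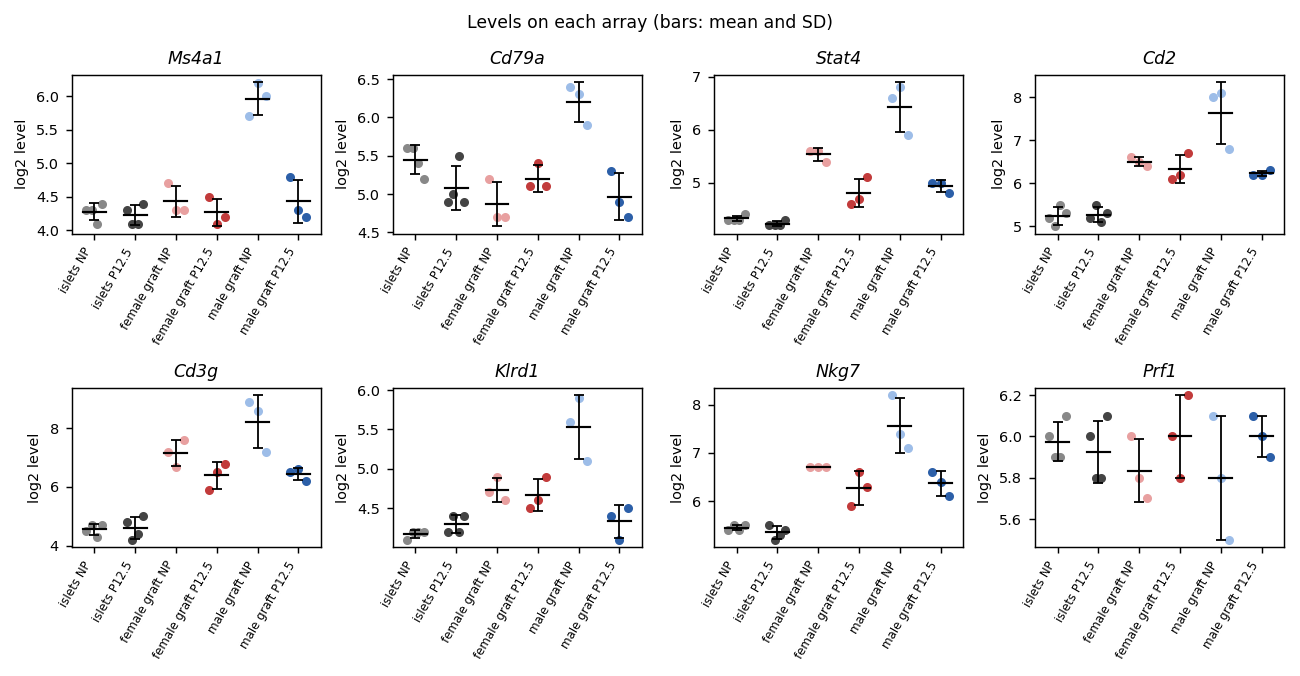
Log2 level of 8 lymphocyte genes on each array by group, with points for arrays, horizontal lines for group means and bars for the SD (n = 4 islet, n = 3 graft arrays a group). Ms4a1 lies at 5.7 to 6.2 in male NP grafts and at 4.1 to 4.8 on all other arrays, whereas Prf1 lies between 5.5 and 6.2 throughout.

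Of the T cell genes, Stat4 and Cd2 fell in male grafts. Stat4 read 6.6, 6.8 and 5.9 in male NP grafts, 5.0, 5.0 and 4.8 in male P12.5 grafts, 5.6, 5.6 and 5.4 in female NP grafts and 4.6, 4.7 and 5.1 in female P12.5 grafts, and between 4.2 and 4.4 on the 8 islet arrays. In both donor sexes every P12.5 graft lay below every NP graft, and every graft lay above every islet array. The male fall was -1.50 ± 0.21 (SE) with an adjusted p of 0.0124 (limma), and the call was lost only without male NP array 2. Cd2 read 8.0, 8.1 and 6.8 in male NP grafts, 6.2, 6.2 and 6.3 in male P12.5 grafts, 6.6, 6.5 and 6.4 in female NP grafts and 6.1, 6.2 and 6.7 in female P12.5 grafts, so that male grafts did not overlap while female grafts did. Its fall of 1.40 in male grafts (adjusted p = 0.0463, limma) lost the call when any of 10 of the 12 graft arrays was left out.

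Other T cell genes had estimates of a similar size but were not called. Cd3g read 8.9, 8.6 and 7.2 in male NP grafts, 6.5, 6.6 and 6.2 in male P12.5 grafts, 7.2, 6.7 and 7.6 in female NP grafts and 5.9, 6.5 and 6.8 in female P12.5 grafts. Male NP arrays 1 and 2 were well above the rest, array 3 lay within the female NP range, and yet all male P12.5 arrays were lower than it. The change in male grafts was -1.8 ± 0.40 with an adjusted p of 0.0598 (limma). Ctla4, the inhibitory receptor that competes with CD28, read 7.0, 6.6 and 5.7 in male NP grafts, 5.2, 5.0 and 4.6 in male P12.5 grafts, 5.1, 5.7 and 5.1 in female NP grafts and 4.8, 5.0 and 5.7 in female P12.5 grafts. Male grafts did not overlap and female grafts did, at a male change of -1.50 ± 0.33 and an adjusted p of 0.0598 (limma).

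The co-receptors that split T cells into helper and killer lines had negative estimates of similar size in male grafts. Cd4, which binds MHC class II, read 7.5, 7.2 and 6.6 in male NP grafts, 6.1, 5.9 and 6.0 in male P12.5 grafts, 6.4, 6.3 and 6.4 in female NP grafts and 5.7, 5.8 and 6.7 in female P12.5 grafts. Cd8a, a chain of the class I co-receptor, read 7.9, 7.6 and 6.8 in male NP grafts, 6.5, 6.5 and 6.3 in male P12.5 grafts, 6.4, 6.6 and 7.1 in female NP grafts and 6.4, 6.3 and 6.6 in female P12.5 grafts. Cd8b1, its partner, read 7.0, 7.2 and 6.1 in male NP grafts, 6.0, 5.8 and 5.8 in male P12.5 grafts, 6.2, 6.1 and 6.5 in female NP grafts and 5.6, 5.9 and 5.9 in female P12.5 grafts. In each of the 3 genes male P12.5 grafts lay below all male NP grafts, and the male changes were -1.10 ± 0.26, -1.0 ± 0.25 and -0.90 ± 0.24 (SE), none of them called. Female grafts overlapped in Cd4 and Cd8a but not in Cd8b1.

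Lef1, a transcription factor of naive T cells, read 6.7, 7.0 and 5.9 in male NP grafts, 5.7, 5.6 and 5.3 in male P12.5 grafts, 5.7, 5.8 and 5.8 in female NP grafts and 5.4, 5.7 and 5.6 in female P12.5 grafts. Ms4a4b read 6.5, 6.8 and 5.5 in male NP grafts, 5.3, 5.2 and 5.3 in male P12.5 grafts, 5.2, 5.3 and 5.5 in female NP grafts and 4.8, 5.1 and 5.3 in female P12.5 grafts. In both, male grafts did not overlap and female grafts did, with male changes of -1.0 ± 0.23 and -1.0 ± 0.27. Cd3e, in contrast, overlapped in male grafts as well as in female grafts, reading 7.8, 7.3 and 6.4 in male NP grafts, 6.7, 6.7 and 6.3 in male P12.5 grafts, 6.6, 6.5 and 6.8 in female NP grafts and 6.4, 6.5 and 7.2 in female P12.5 grafts, and its male change was -0.60 ± 0.31. The co-stimulatory receptors Cd28 (-0.87), Icos (-0.73) and Cd27 (-0.43) were not called, nor were the receptor signalling genes Lat (-0.83), Cd247 (-0.37) and Zap70 (-0.23). Foxp3, the factor of regulatory T cells, had a male estimate of -0.30 ± 0.21 and Thy1, which stromal cells also express, one of -0.03 ± 0.29, the smallest estimate of the T cell group.

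In the cytotoxic or NK group both genes that fell in male grafts encode receptors. The receptor genes Il2rb and Ncr1 and the killing genes were not called. Gzma and Gzmb were each above the lower quartile on only 1 of the 12 graft arrays, so a fall in them could be missed. A difference between receptor and killing genes was not tested. Klrd1 encodes CD94, which pairs with some NKG2 receptors but not with NKG2D, the product of Klrk1. Klrd1 read 5.6, 5.9 and 5.1 in male NP grafts and 4.4, 4.1 and 4.5 in male P12.5 grafts. In female grafts it read 4.7, 4.9 and 4.6 at NP and 4.5, 4.6 and 4.9 at P12.5. Male NP grafts lay above all other arrays, and male P12.5 grafts lay at or below the female range. The change was -1.2 ± 0.20 (SE, adjusted p = 0.0215, limma). Klrk1 read 5.3, 5.1 and 4.8 in male NP grafts, 4.3, 4.3 and 4.3 in male P12.5 grafts, 4.6, 4.4 and 4.3 in female NP grafts and 4.4, 4.5 and 4.5 in female P12.5 grafts, with the same separation of male NP grafts, and fell by 0.77 (adjusted p = 0.0235, limma). The calls for Klrd1 and Klrk1 were lost without 2 and 3 of the 12 graft arrays, respectively, left out singly: male NP array 2 and male P12.5 array 2 for both genes, and male P12.5 array 3 for Klrk1.

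Il2rb read 7.6, 7.1 and 6.4 in male NP grafts, 5.9, 5.8 and 5.4 in male P12.5 grafts, 5.8, 6.3 and 6.0 in female NP grafts and 5.2, 5.7 and 6.1 in female P12.5 grafts. Nkg7 read 8.2, 7.4 and 7.1 in male NP grafts, 6.6, 6.4 and 6.1 in male P12.5 grafts, 6.7, 6.7 and 6.7 in female NP grafts and 5.9, 6.6 and 6.3 in female P12.5 grafts. Male groups did not overlap in either gene, and the male changes of -1.33 ± 0.30 and -1.2 ± 0.26 had adjusted p of 0.0613 and 0.0545 (limma). The NK receptor Ncr1, or NKp46, read 5.0, 4.8 and 4.5 in male NP grafts, 4.0, 4.3 and 4.1 in male P12.5 grafts, 4.1, 4.3 and 4.1 in female NP grafts and 4.2, 3.9 and 4.1 in female P12.5 grafts. Its male NP arrays were the highest of all 20, although the change of -0.63 ± 0.14 was not called (adjusted p = 0.0653, limma).

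Of the killing genes, Gzma read 5.0, 4.7 and 4.6 in male NP grafts, 4.1, 4.4 and 4.4 in male P12.5 grafts, 4.2, 4.2 and 4.2 in female NP grafts and 4.2, 4.5 and 4.0 in female P12.5 grafts, with male NP grafts highest and a change of -0.47 ± 0.15 that was not called. Prf1, perforin, read 6.1, 5.8 and 5.5 in male NP grafts, 6.1, 6.0 and 5.9 in male P12.5 grafts, 6.0, 5.8 and 5.7 in female NP grafts and 6.0, 5.8 and 6.2 in female P12.5 grafts, and all groups overlapped. Its change in male grafts was 0.20 ± 0.16 with a 95% interval of -0.15 to 0.55. Gzmb, Gzmk and Tbx21, a T-box factor of killer and helper cells, had male estimates of -0.20 and the related factor Eomes one of -0.37, none of them called. On all female P12.5 arrays and all male P12.5 arrays, 4 and 5 of the 11 cytotoxic or NK genes lay at or below the lower quartile, where 22.1% and 22.3% of all probe sets did.

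**Figure D3:**
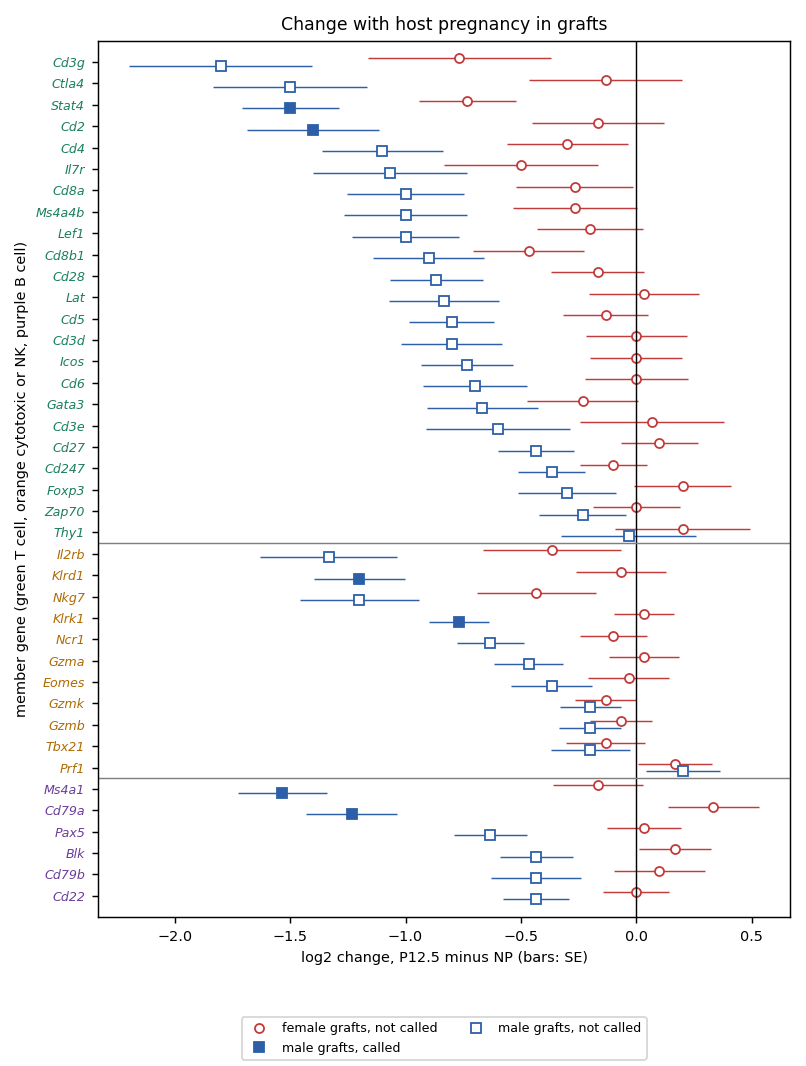
Log2 change (P12.5 minus NP, bars for the SE) of the 40 genes in female (circles) and male (squares) islet grafts, ordered within each class by the male change, with filled symbols for called genes. All 6 filled symbols are male, and 39 of 40 male estimates lie left of 0.

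In female islet grafts no lymphocyte gene was called. By limma 0 of 40 genes passed, where 1.7% of all probe sets did, and 1 gene, Stat4, had an unadjusted p under 0.05, where 21.2% of probe sets did. The change in Stat4 was -0.73 ± 0.21 (SE) with an adjusted p of 0.0892, and that in Cd3g was -0.77 ± 0.40. Stat4, Cd8b1 and Nkg7 had all P12.5 grafts below all NP grafts, that is 3 of 40 genes where 9.13% of probe sets did. Median changes were -0.13 in T cell, -0.07 in cytotoxic or NK and 0.07 in B cell genes. Intervals were wide: the female change of Ms4a1 was -0.17 with a 95% interval of -0.59 to 0.26, that of Cd79a 0.33 (-0.10 to 0.77) and that of Cd2 -0.17 (-0.79 to 0.46).

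The male and female changes were compared in an interaction test, and 0 of 40 genes were called by limma, as were 0% of all probe sets, while 20 genes had an unadjusted p under 0.05, where 4.99% of probe sets did. The interaction was negative for 39 of 40 genes with a median of -0.67. It was largest in Cd79a, -1.57 ± 0.28 (SE) at an adjusted p of 0.711, followed by Ctla4 (-1.37 ± 0.47) and Ms4a1 (-1.37 ± 0.27). A different response of male and female grafts is thus not shown for any single gene.

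Averaged over both donor sexes, 13 of 40 genes fell at P12.5 by limma and none rose, where 2% of all probe sets fell. They comprised 9 of 23 T cell genes, 3 of 11 cytotoxic or NK genes and 1 of 6 B cell genes. Stat4 fell by 1.12 on the log2 scale (adjusted p = 0.00238), Cd3g by 1.28 (0.0174), Ms4a1 by 0.85 (0.00569) and Nkg7 by 0.82 (0.0184), and these 4 were called whichever graft array was left out. Of the 4, Ms4a1 was above the lower quartile on only 3 graft arrays, all of them male NP, so its averaged fall rests on that group. The other 9 were Il2rb (-0.85), Ctla4 (-0.82), Cd2 (-0.78), Cd4 (-0.70), Cd8b1 (-0.68), Klrd1 (-0.63), Cd8a (-0.63), Ms4a4b (-0.63) and Lef1 (-0.60), with adjusted p up to 0.049. Il7r just missed (-0.78, adjusted p = 0.0501), and Cd28, Cd5, Klrk1 and Ncr1 passed in p but not in fold. This average shares its arrays with both single-sex comparisons, and no lymphocyte gene was called in female grafts alone. The median change of the 40 genes was -0.38 in the average, -0.75 in male grafts and -0.08 in female grafts. The average therefore does not show that each of the 13 fell in both sexes. The count ranged from 4 (without male NP array 2) to 15 over the arrays left out, was 5 without female P12.5 array 1 or male P12.5 array 2, and was 6 to 8 without any 1 of the 3 female NP arrays, female P12.5 array 2, male NP array 1 or male P12.5 array 3.

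In NP hosts lymphocyte gene estimates were higher in male than in female grafts, with 1 gene past the threshold, and at P12.5 no gene passed it. At NP the difference was positive for 39 of 40 genes, with medians of 0.73 in T cell, 0.57 in cytotoxic or NK and 0.73 in B cell genes, against 0 over all probe sets. For 22 of 40 genes all male arrays lay above all female arrays, where 3.38% of probe sets did: 10 of 23 T cell, 6 of 11 cytotoxic or NK and 6 of 6 B cell genes. Only Ms4a1 was called, at 1.53 ± 0.19 (SE) and an adjusted p of 0.043 (limma), where 0.0141% of probe sets were, that is 5 probe sets. Of the other 4, 3 belong to the Y-linked genes Kdm5d, Eif2s3y and Uty and 1 carries no symbol. In the same comparison 10 of 10 pan-leukocyte genes had positive estimates (median 0.72) and 13 of 13 kidney genes negative ones (median -0.73), with none called in either list, and their part in the lymphocyte gene difference was not tested. Cd79a differed by 1.33 ± 0.20 and had an adjusted p of 0.14.

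The Ms4a1 call was kept in 1 of 12 fits that left out a graft array, with differences of 1.42 to 1.67 and adjusted p up to 0.32. Without male NP array 3 there were 6 calls, Ms4a1 not among them. At P12.5 male and female grafts differed in 0 of 40 genes by limma, where 0.0113% of probe sets were called, and 0 genes had an unadjusted p under 0.05, where 3.58% of probe sets did. Estimates ran from -0.33 for Klrd1 to 0.33 for Cd79b, and the 95% interval for Ms4a1 was -0.26 to 0.59. These comparisons share the NP and P12.5 graft arrays with the pregnancy comparisons above.

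**Figure D4:**
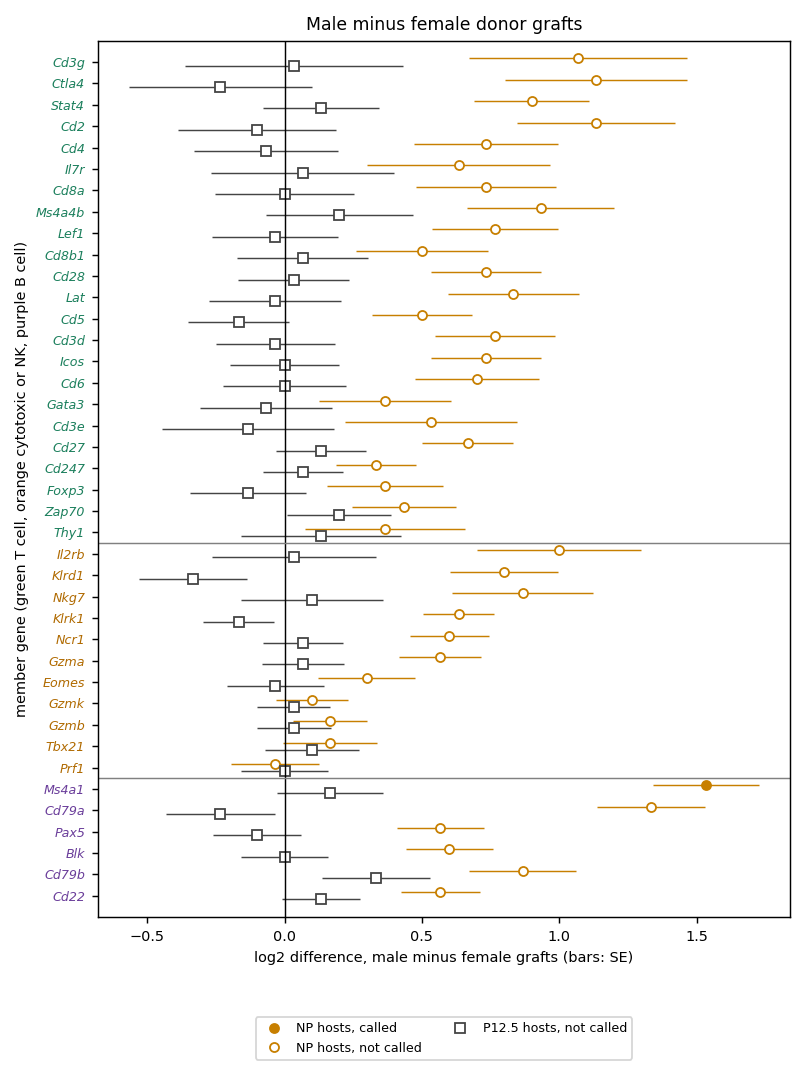
Log2 difference between male and female donor grafts (male minus female, bars for the SE) in NP hosts (circles) and P12.5 hosts (squares) for the 40 genes, with the filled symbol for the called gene, Ms4a1. NP differences reach 1.53, and P12.5 differences lie between -0.33 and 0.33.

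Single arrays carried the classes unequally. Male NP array 3 had the lowest level of its group in 23 of 23 T cell and 10 of 11 cytotoxic or NK genes, but in 3 of 6 B cell genes. Array 1 of that group was highest alone in 13 T cell and 9 cytotoxic or NK genes, and array 2 was highest alone in 5 of 6 B cell genes. In female P12.5 grafts array 3 was highest alone in 20 of 23 T cell genes and array 1 lowest alone in 17. Mean T cell gene levels were 6.10 to 7.0 in male NP grafts, 5.76 to 5.85 in male P12.5 grafts, 5.93 to 6.0 in female NP grafts and 5.55 to 6.11 in female P12.5 grafts. Mean B cell gene levels were 5.98 to 6.30 in male NP grafts and 5.03 to 5.47 in the other graft groups.

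Several of the genes lie side by side in the genome. In the annotation no protein-coding gene starts between Cd3g, Cd3d and Cd3e, between Cd28, Ctla4 and Icos, or between the members of the pairs Cd5 and Cd6, Cd8a and Cd8b1, Gzma and Gzmk, and Klrd1 and Klrk1. Neighbours had unequal estimates. In male grafts the estimate was -1.8 ± 0.40 for Cd3g, -0.80 ± 0.22 for Cd3d and -0.60 ± 0.31 for Cd3e (SE). It was -1.50 ± 0.33 for Ctla4, which lies between Cd28 at -0.87 ± 0.20 and Icos at -0.73 ± 0.20. The difference between neighbours was not tested.

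Other lymphocyte genes, from lists that do not overlap with the 40, also had mostly negative estimates in male grafts. Over all 35511 probe sets 16339 estimates were negative and 0.453% of probe sets fell. These lists were read on the same arrays and were chosen with earlier results of these data known, so they are no independent support. Of 17 further T cell genes 16 had a negative estimate (median -0.40) and 1 fell, Ikzf3 (-1.03), a zinc finger factor that B cells also express. Of 13 further cytotoxic or NK genes 10 were negative (median -0.47) and 1 fell, Klrc1, an NKG2 receptor that pairs with CD94 (-0.90). Of 18 further B cell genes 17 were negative (median -0.58) and 5 fell. They were H2-Ob (-1.20), which modulates class II peptide loading, the inhibitory receptor Btla (-1.13), the tetraspanin Cd37 (-0.93), the follicle-homing receptor Cxcr5 (-0.77) and the factor Spib (-0.77). In female grafts 0 genes of these 3 lists were called, where 1.7% of all probe sets were, with medians of 0, 0.07 and -0.05. Over both sexes the T cell gene Themis (-0.63) fell, as did Btla (-0.73), Cxcr5 (-0.63) and H2-Ob (-0.78), where 2% of all probe sets fell. Adjusted p of these named genes was at most 0.0483 (limma).

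Genes shared by all leukocytes and genes of other cells in the graft were read beside these. All 10 pan-leukocyte genes had negative estimates in male grafts (median -0.72), and 1 fell, Coro1a (-1.03), while over both sexes Cd53 fell (-0.78). Their mean level was 8.03 to 8.69 in male NP, 7.55 to 7.94 in male P12.5, 7.58 to 7.86 in female NP and 7.29 to 8.21 in female P12.5 grafts. Macrophage and dendritic cell genes had a median change of 0.03 in male grafts and 0.10 in female grafts, with 0 of 13 called. Within that list Itgax, Clec9a and Flt3, which dendritic cells express though not all of them alone, had male estimates of -0.73, -0.67 and -0.40. The other 10 lay between -0.13 and 0.43. The list was drawn up as 1 set, and a difference within it was not tested. All 8 endothelial genes had positive male estimates (median 0.55), as had 6 of 8 stromal genes (median 0.25), with none called in either list. The median was -0.02 in male grafts for neutrophil and mast cell genes, with 0 of 8 called. Plasma cell genes had a median of 0.12 in male grafts, with 0 of 6 called. Kidney genes had a median of 0 in male grafts and -1.67 in female grafts, with 0 of 13 called in both. In female grafts 10 of 13 kidney genes had all P12.5 arrays below all NP arrays, where 9.13% of all probe sets did. In male grafts 0 of 13 kidney genes did, where 9.38% of all probe sets did. On the male NP arrays the kidney mean was 6.58, 8.23 and 7.73 and the T cell mean was 7.0, 6.89 and 6.10, so array 1 had the lowest kidney and the highest T cell mean. The part of kidney tissue in the lymphocyte gene changes was not tested.

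**Figure D5:**
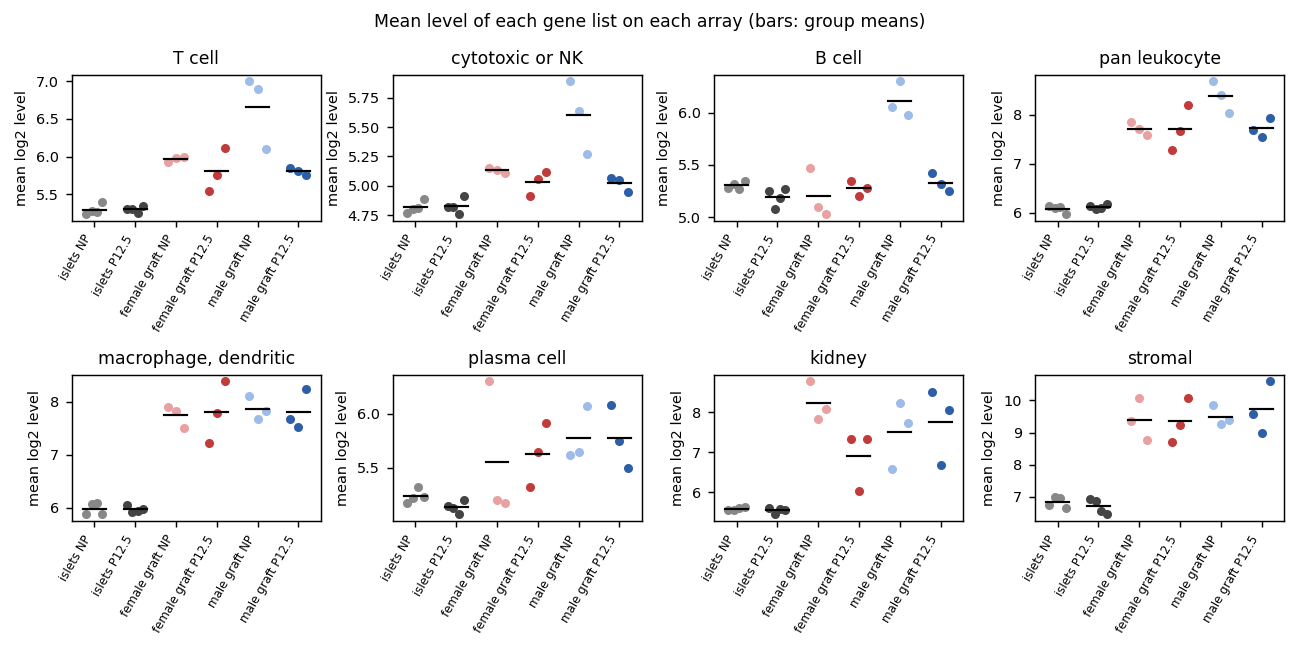
Mean log2 level of each gene list (the 3 lymphocyte classes and 5 other lists) on each array by group, with points for arrays and lines for group means. The 3 lymphocyte classes and pan-leukocyte genes are highest in male NP grafts, while macrophage and dendritic cell means lie between 7.22 and 8.38 in all 4 graft groups.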

How the data were processed

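RNA from islets and islet grafts was profiled on 1-colour Affymetrix MoGene 1.0 ST arrays. The authors preprocessed the scans with robust multichip analysis (aroma.affymetrix in R) and deposited the log2 values used here, rounded to 1 decimal, so small differences come in steps. Scanner intensities were not used here. Groups came from the sample titles and sources. The titles call samples of a group biological replicates, and whether islets of several animals were pooled is not given in the sources used here. No column of another sample was present (0 columns left out).

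Probe sets were named from the platform's annotation table. Of 35511 probe sets, 21789 carried 1 symbol, 1621 several and 12101 none. All 40 measured symbols were current by Entrez identifier in the RefSeq gene table. The members, the other gene lists, the motifs and the tests were chosen with earlier results of these data known. The rule for named genes was every lymphocyte gene called in at least 1 of 10 comparisons, with levels on each array for those called in a graft pregnancy comparison, for the 3 with the largest change over both donor sexes in each class and for 9 defining genes (Cd3e, Cd4, Cd8a, Ncr1, Gzma, Prf1, Ms4a1, Cd79a and Cd79b). A further promoter motif, that of EBF factors, was also searched and was left out after its matches had been seen, because its letters could not be given in the form used for the others. Other values are given because a comparison, array or neighbouring gene is described.

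Models were fitted with limma 3.58.1 (lmFit and eBayes, R 4.3.3) over all probe sets, with two-sided tests and Benjamini-Hochberg adjustment over all of them: 8 arrays for islets, 12 for grafts and 20 for grafts against islets, with group as the only factor. Called means an adjusted p under 0.05 and a fold of at least 1.5. The procedure was tested on simulated data with known changes. Alternatives were a renewed quantile normalization, subtraction of array medians, a filter on dim probe sets, trended and robust moderation, no fold minimum, the replicate number as a block, averaging the probe sets of a gene, all 20 arrays in 1 model, and each array left out. The male graft medians without single arrays were added after seeing the data. The precision is limited by 3 or 4 arrays a group.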

Additional observations from a re-analysis of the deposited data

Results flagged for a closer look

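Among the 80 sets of 4 islet arrays (40 genes in NP and P12.5 islets), 12 had an array set apart from its group by Dixon's criterion (critical value 0.829 for 4 arrays), which chance gives in about 1 in 20 sets. With values in steps of 0.1, such gaps were often a single step. In NP islets the highest array was replicate 4 for Lat (6.0), Stat4 (4.4) and Gzmk (5.1) and replicate 2 for Icos (5.4). The lowest NP array was replicate 1 for Cd247 (5.3) and Klrd1 (4.1), replicate 2 for Ms4a4b (4.0) and replicate 3 for Klrk1 (4.1). In P12.5 islets the highest array was replicate 1 for Cd3d (5.0), replicate 4 for Cd28 (5.2) and Stat4 (4.3) and replicate 3 for Cd79a (5.5). Graft groups of 3 arrays were not examined in this way.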

How the results depend on the processing

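Over all comparisons, the count of called lymphocyte genes kept within 1.5 times of its value in 182 alternatives and moved further in 35. Counts of 0 that stayed 0 are among the 182, and averaging probe sets could not change the levels of genes with 1 probe set. The share of all probe sets called in each alternative is not given, so a shift may not be particular to lymphocyte genes. The main shifts follow, and their cause was not tested. In male grafts (6 genes) the count was 11 after renewed quantile normalization, 16 after array medians were subtracted and 24 with all 20 arrays in 1 model, where the female graft count was 1 in place of 0 and the male against female NP count 2 in place of 1. With 1 array left out, the counts ran from 1 to 20 in male grafts, 0 to 1 in female grafts, 4 to 15 over both donor sexes, 0 to 6 between male and female NP grafts and 2 to 10 between female grafts and islets at P12.5. Prf1 between male and female NP grafts (-0.03) ran from -0.18 to 0.12 with 1 array left out, turning to 0.05 without female NP array 1 and to 0.12 without male NP array 3. With replicate numbers entered as a block (replicate block), 3 genes were called in male grafts, 8 over both donor sexes and 0 between male and female NP grafts. The numbers did not pair the samples: deviations of same-numbered samples correlated at -0.03 to 0.23 in islets (4 pairs) and -0.29 to 0.37 in grafts (18 pairs), and 3 of 8 islet and 2 of 12 graft samples correlated best with their own number. The dim end of the arrays limits Gzma, Gzmb and Ncr1, which a filter on dim probe sets removed from the graft comparisons, and Ms4a1, Klrk1 and Klrd1, which passed it through the male NP arrays. For grafts against islets the dim end also limits the rises of Cd3g, Il7r, Stat4 and Ms4a4b, which were dim in islets.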
